A study of Mus musculus with 8 samples.

Results

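Bulk RNA-seq of tumor-associated macrophages (TAMs) from Unc93b1 3d/3d mice was compared between mice given αMARCO and control mice. The members were the 4 libraries that the labels assign to this genotype, 2 of each treatment, out of 8 libraries in the series. The other 4 libraries came from WT mice and served only as the second genotype in a test of whether the αMARCO effect differed. Read counts of 24403 genes were deposited for the 4 libraries, and 15428 genes passed the filter on low counts.

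Female mice of 8–14 weeks received EO771 breast cancer cells in the mammary fat pad, and tumors were taken on day 21. Treated mice carried the genotype Unc93b1 3d/3d and received 100 µg of αMARCO, a rat IgG1 (clone ED31), on days 3, 6, 9 and 12. Control mice of the same genotype are labelled untreated and their libraries are named PBS, whereas the protocol describes a rat IgG1 isotype control (clone TNP6A7), so which of these the control libraries received was not settled here. One control library carries the genotype 3d/4d in one label and 3d/3d in its title, and it was used as titled. After enrichment on CD45 beads, the live cells positive for CD45, CD11b and F4/80 and negative for Gr-1 were sorted. Control samples were each pooled from the TAMs of 3 mice, and no pooling was stated for the αMARCO libraries. With 2 libraries per group, p-values measure only the spread between these samples, which may be partly technical.

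MARCO is a class A scavenger receptor of macrophages that binds modified lipoproteins, bacteria and other polyanionic ligands. UNC93B1 is the chaperone that carries nucleic acid-sensing Toll-like receptors from the endoplasmic reticulum to endosomes. The 3d allele is a missense change that blocks this transport, so Unc93b1 3d/3d cells do not signal through TLR3, TLR7 or TLR9. The comparison asks which macrophage genes still differ after αMARCO when endosomal TLRs cannot signal. In bulk RNA, fewer cells of a type and less RNA per cell cannot be told apart.

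Library totals ranged from 15182618 to 21527212 counts, at which 3 counts equal 0.139 to 0.198 CPM, the count scaled to library size. Of the sort markers, Itgam (CD11b) averaged 394 CPM and Adgre1 (F4/80) 434 CPM over the 4 libraries. Itgam was 0.41 and 0.72 above the control mean on the log2 scale in αMARCO libraries 1 and 2, while Adgre1 differed by -0.46 and -0.60 (edgeR unadjusted p of 0.064 and 0.066). All 15 of 15 macrophage markers were tested, with a summed level of 12044 and 13377 CPM in control libraries and 12725 and 17258 CPM in αMARCO libraries. αMARCO library 2 stood apart from the other 3. Its log2 CPM correlated with them at 0.937 to 0.947 over the tested genes, against 0.979 to 0.985 among those 3 (a description across genes, which are not independent). In αMARCO library 2, 270 tested genes had no count, against 1 to 8 elsewhere, and its 50 most abundant genes took 18.2% of counts, against 14% to 14.8%. It also had a trend with gene length. In bins of equal gene number, its median log2 ratio to the control mean was 0.46 for genes of about 1.34 kb and -0.56 for genes of about 11.4 kb. In αMARCO library 1, the medians of the same bins were -0.09 and 0.04. Most results below are therefore given in both treated libraries, with the value obtained without αMARCO library 2 for the genes that matter most.

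**Figure D1:**
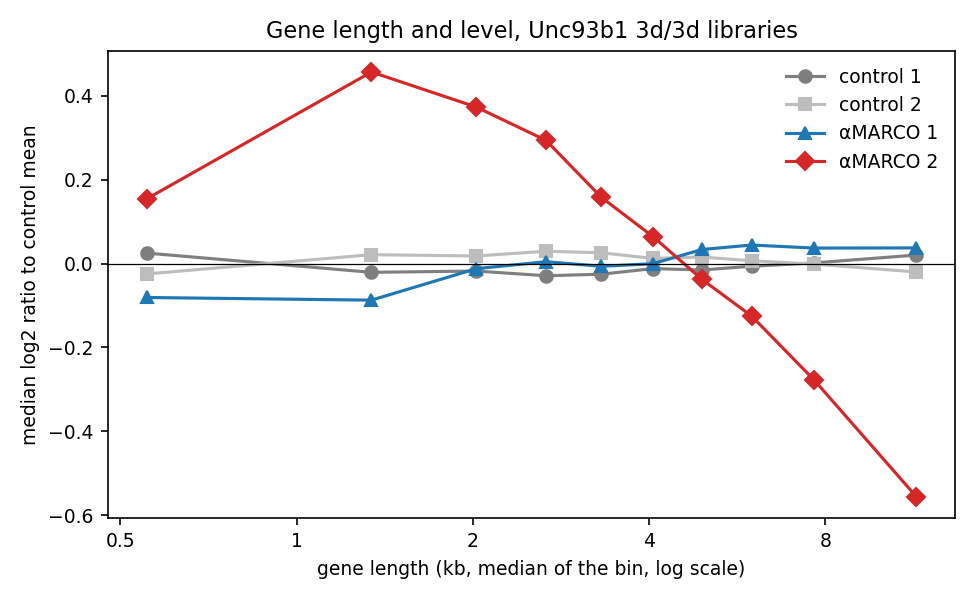
Median log2 ratio to the control mean (y axis) in 10 bins of genes ordered by length in kb (x axis, log scale), for each of the 4 Unc93b1 3d/3d libraries (lines with points). αMARCO library 2 falls from 0.46 at 1.34 kb to -0.56 at 11.4 kb, and the other 3 libraries stay between -0.09 and 0.04.

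No gene was called in the comparison of αMARCO with control by edgeR's quasi-likelihood test (Benjamini-Hochberg adjusted p up to 0.05, with a log2 fold change of 0.5 or more in either direction). The smallest adjusted p was 0.136, for Dgat2, and 744 genes reached an unadjusted p of 0.05, of which 392 were higher after αMARCO (2.54% of tested genes) and 352 lower (2.28%). DESeq2 called 54 genes, 29 higher (0.119% of its 24403 genes) and 25 lower (0.102%). In each of these 54 genes, both αMARCO libraries lay on the same side of both control libraries. Over all tested genes, both αMARCO libraries lay above both controls in 3034 genes (19.7%) and below both in 3001 (19.5%). They lay on opposite sides of the control mean in 6667 genes. Without αMARCO library 2, edgeR called 267 genes higher (1.59%) and 304 lower (1.81%), with the lone treated library assumed to vary like the controls. Of these, 264 and 304 were among the 15428 tested genes, and αMARCO library 2 lay beyond both controls in the same direction in 220 (83.3%) and 212 (69.7%), against 44.2% and 43.5% of all tested genes. Both of these readings rest on the same control libraries. Without αMARCO library 1 the fit called 5500 genes, 16.9% of tested genes higher and 17.2% lower. Apart from Dgat2, Npl and Cd4, edgeR's adjusted p was at least 0.823 for the genes named below. No named gene passed edgeR's test, so their differences are descriptions of these 4 libraries, also where DESeq2, an alternative test, called them.

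The gene with the strongest difference was Dgat2, diacylglycerol O-acyltransferase 2, which makes the last step of triglyceride synthesis (ENSMUSG00000030747, chromosome 7, 99153658 to 99182719, minus strand, GRCm38). Its level was 127 and 118 CPM in control libraries and 10.7 and 13.9 CPM in αMARCO libraries. The groups were far apart and the libraries within each were close. The log2 fold change was -3.32 ± 0.25 (SE, n = 2 and 2), 9.98-fold lower, with an edgeR unadjusted p of 8.8e-06 and a DESeq2 adjusted p of 5.2e-22. Without αMARCO library 2 it was -3.51, with an edgeR adjusted p of 5.3e-31. Over the alternative fits its adjusted p ranged from 5.3e-31 to 0.149, and its log2 fold change from -3.51 to -3.14. Dgat1, the other enzyme of this step, was 72.2 and 42.1 CPM in controls and 72.8 and 85.1 CPM after αMARCO, a difference no larger than the spread of the controls (unadjusted p = 0.18).

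The list of LXR targets and fatty acid genes around Dgat2 held 19 tested members. None had an unadjusted p of at most 0.05 on the higher side (against 2.54% of all tested genes) and 2 did on the lower side (against 2.28%). These were Dgat2 itself, already given above as the strongest gene, and Abca1, so only Abca1 adds to Dgat2. DESeq2 called both lower. Abca1, the cholesterol exporter that loads HDL, was 435 and 422 CPM in controls and 234 and 133 CPM after αMARCO. Its log2 fold change was -1.22 ± 0.33 (DESeq2 adjusted p = 0.049), and it was -0.86 without αMARCO library 2. Abcg1, a second cholesterol exporter, was 270 and 268 CPM in controls and 211 and 177 CPM after αMARCO, lower in both treated libraries (unadjusted p = 0.081). The median of the list was -0.25, against 0.03 over all tested genes, and it was -0.09 after correction for gene length, -0.02 in αMARCO library 1 and -0.32 in αMARCO library 2. The list as a whole was thus close to all genes in αMARCO library 1.

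Resident-like macrophage genes were the list with the most lower members among macrophage programs. These genes mark long-lived tissue macrophages and include scavenging receptors, iron export and growth factor genes. Of 26 members 25 were tested. At an unadjusted p of at most 0.05, 9 were lower (against 2.28% of all tested genes) and 0 higher. In 13 both αMARCO libraries lay below both controls (against 19.5%), while in 2 they lay above. DESeq2 called 5 lower (against 0.102% of its genes) and 0 higher (against 0.119%). The list's median was -0.68, with -0.47 in αMARCO library 1 and -0.87 in αMARCO library 2. The treated libraries agreed in direction in 17 of the 25, 14 below (against 27.5% of all tested genes) and 3 above (against 29.3%). They were split in 8, against 6667 of all 15428 tested genes.

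Folr2, folate receptor beta, was 26.3 and 29.0 CPM in controls and 8.96 and 6.86 CPM after αMARCO. Its log2 fold change was -1.80 ± 0.27 (DESeq2 adjusted p = 0.00085), and -1.62 without αMARCO library 2. Slc40a1, ferroportin, the cellular iron exporter, was 60.5 and 61.1 CPM in controls and 16.8 and 22 CPM after αMARCO. In both genes the treated libraries lay well below controls that nearly coincided.

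The chemokine gene Ccl8, whose product recruits monocytes and lymphocytes, was 174 and 198 CPM in controls and 32.7 and 54.7 CPM after αMARCO, a log2 fold change of -2.09 ± 0.31 (DESeq2 adjusted p = 8.15e-07). Igf1, insulin-like growth factor 1, was 24.8 and 22 CPM in controls and 8.96 and 7.83 CPM after αMARCO. Cbr2, a carbonyl reductase often used as a marker of these macrophages and named here after its values were seen, was 103 and 113 CPM in controls and 31.8 and 46.7 CPM after αMARCO. For these 5 genes DESeq2's adjusted p was at most 0.018, and the treated libraries agreed.

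Other members were lower by less. Mrc1, the mannose receptor CD206, was 1906 and 2551 CPM in controls and 1354 and 1135 CPM after αMARCO (log2 fold change -0.84 ± 0.31, unadjusted p = 0.033, DESeq2 adjusted p = 0.30). Mertk, a receptor for the uptake of apoptotic cells, was 168 and 169 CPM in controls and 138 and 67.9 CPM after αMARCO, and its size rested on αMARCO library 2, since the log2 fold change was -0.71 with it and -0.27 without it. Lyve1, a hyaluronan receptor, was 15.8 and 9.56 CPM in controls and 12.6 and 9.35 CPM after αMARCO, and the groups overlapped. The scavenger receptor Cd163 was 54.4 and 46.8 CPM in controls and 38.4 and 21.1 CPM after αMARCO, lower in both treated libraries (unadjusted p = 0.059).

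The 10 leading lower genes, ranked by edgeR's p among genes of at least 5 CPM whose groups did not overlap and whose log2 difference was at least 1, held 5 more names outside that list beside Dgat2. Npl, N-acetylneuraminate pyruvate lyase, which breaks down sialic acid, was 38.5 and 49.2 CPM in controls and 8.87 and 8.73 CPM after αMARCO (log2 fold change -2.32 ± 0.26, edgeR adjusted p = 0.676, DESeq2 adjusted p = 3.7e-08). Vcam1, a cell adhesion molecule that binds integrins of leukocytes, was 87.8 and 104 CPM in controls and 18.3 and 32.1 CPM after αMARCO. Fam71a was 10.7 and 12.6 CPM in controls and 2.03 and 2.15 CPM after αMARCO. Both treated libraries lay well below both controls in each of these 3 genes.

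Lonrf3, a RING finger protein gene, was 31.0 and 27.3 CPM in controls and 11.4 and 9.83 CPM after αMARCO. Cd4, the T cell co-receptor, which some mouse macrophages also express, was 61.9 and 62.4 CPM in controls and 12.2 and 6.79 CPM after αMARCO (log2 fold change -2.70 ± 0.33, edgeR adjusted p = 0.729, DESeq2 adjusted p = 6.6e-10). Fn1, fibronectin, and Fcrls, a myeloid Fc receptor-like gene, were 265 and 348 CPM, and 315 and 378 CPM, in controls, and these too were named after their values were seen. After αMARCO, Fn1 was 151 and 77.4 CPM and Fcrls was 146 and 138 CPM, and DESeq2 called both lower.

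**Figure D2:**
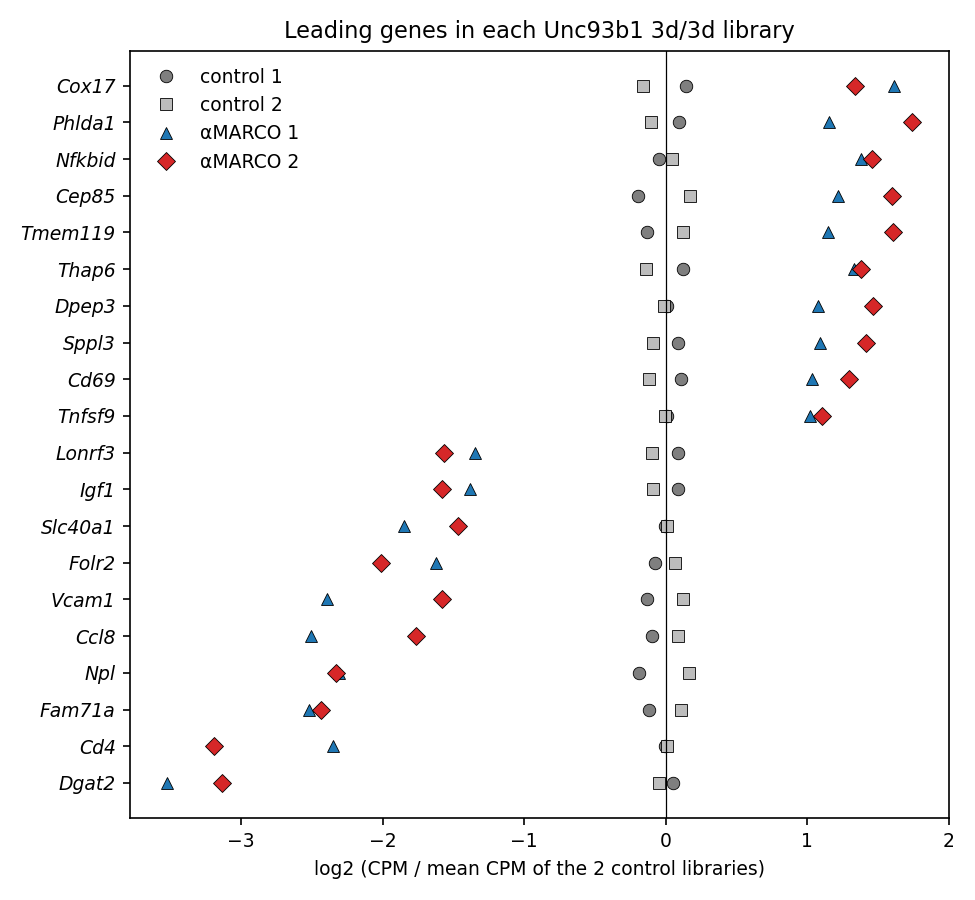
Log2 ratio of CPM to the mean of the control libraries (x axis) for the 10 leading higher and 10 leading lower genes (y axis) in each Unc93b1 3d/3d library (gray, controls; blue triangles, αMARCO library 1; red diamonds, αMARCO library 2). The rule that chose these genes required groups that do not overlap, and Dgat2 is the farthest from the controls.

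Markers of other cells moved with some of these genes. Of 21 T cell markers 15 passed the filter on low counts. Markers near the floor could pass through the control libraries, where they were higher, so no count over the tested members is read here. The summed level of the list was 105 and 83.7 CPM in controls and 26.4 and 20.2 CPM after αMARCO, and Cd4 was the most abundant member in the controls. The defining markers were near the floor in these sorted cells. Cd3e had 25 and 9 counts in controls and 7 and 6 after αMARCO, Cd3g had 26 and 18 counts and then 8 and 6, and Cd8a had 21 and 7 counts and then 3 and 2. Cd3e, Cd3g and Cd8a were at most 1.64 CPM in the controls. Other members were lower too, such as Cd3d, Lck and Icos with log2 fold changes of -1.55, -1.82 and -2.97. Trbc1 was at 0.05 and Cd5 at -0.11. The part of T cells in the difference of Cd4 was not tested. Mast cell, basophil and eosinophil markers, 5 tested of 14, summed to 12.0 and 9.46 CPM in controls and 4.64 and 3.12 CPM after αMARCO. Fibroblast markers summed to 443 and 357 CPM in controls and 411 and 190 CPM after αMARCO, and these groups overlapped. NK cell markers summed to 75.3 and 46.4 CPM in controls and 51.9 and 70.4 CPM after αMARCO, which overlapped too. Over the 10 tested NK cell markers the median was -0.89, with -0.70 and -0.62 in αMARCO libraries 1 and 2. Here too, markers near the floor could pass the filter through the control libraries.

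Among genes that were higher, the immediate early and cell isolation stress genes were the most uniform list. They encode transcription factors, phosphatases and RNA-decay factors that cells switch on within minutes of a stimulus or of tissue dissociation. Of 23 tested members, 12 were higher (against 2.54% of all tested genes) and 0 lower at an unadjusted p of at most 0.05. In 22 both αMARCO libraries lay above both controls (against 19.7%) and in 0 below. The treated libraries agreed in 22 and were split in 1, against 6667 split of all 15428 tested genes. The median was 0.86, with 0.73 in αMARCO library 1 and 1.03 in αMARCO library 2, and 0.87 after correction for gene length. DESeq2 called 3 higher (against 0.119% of its genes).

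Fos, a subunit of the AP-1 factor, was 1579 and 1540 CPM in controls and 2968 and 3887 CPM after αMARCO (log2 fold change 1.14 ± 0.31, DESeq2 adjusted p = 0.032). Its partner Jun differed by less, with 1229 and 1221 CPM in controls and 1698 and 1691 CPM after αMARCO (0.47 ± 0.27). Btg2, an antiproliferative factor that recruits the mRNA deadenylase complex, was 377 and 268 CPM in controls and 773 and 1036 CPM after αMARCO (1.49 ± 0.31, DESeq2 adjusted p = 0.0025). Both treated libraries lay above both controls in the 3 genes.

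Rgs1, a brake on G protein-coupled chemokine receptors, was 706 and 721 CPM in controls and 1359 and 1833 CPM after αMARCO (DESeq2 adjusted p = 0.030). Atf3, a stress-induced repressor of inflammatory genes, was 630 and 595 CPM in controls and 1141 and 1249 CPM after αMARCO (0.96 ± 0.26, DESeq2 adjusted p = 0.097). Egr1 was 72.5 and 66.1 CPM in controls and 94.7 and 96.9 CPM after αMARCO, and Klf2 was 91.1 and 99.4 CPM in controls and 158 and 269 CPM after αMARCO. The treated libraries agreed closely for Egr1, while Klf2 was higher in αMARCO library 2 than in library 1.

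Many promoters of such genes hold a cAMP response element, the letters TGACGTCA, which reads the same on both strands. Of the 23 tested members, 13 had a RefSeq start (GRCm38.p6) within 500 bases of the deposited gene's 5′ end, and the 250 bases before the start held these letters in 2, Btg2 and Dusp1 (15.4%), against 1.55% of 32851 promoters of that length. They are shown because Btg2 led the list. Capitals mark the element. The stretches lie on the minus strand at chr1:134079288-134079347 for Btg2 and chr17:26508582-26508641 for Dusp1.
Btg2: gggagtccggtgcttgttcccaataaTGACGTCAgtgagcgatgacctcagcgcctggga
Dusp1: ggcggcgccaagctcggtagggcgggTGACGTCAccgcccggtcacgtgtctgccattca
A kappaB site and a CArG box, searched as fixed letters, and the AP-1 letters TGANTCA, on both strands, were in 0 of the 13 windows, which says only that these letters are not there. A match is a description of the sequence. Dusp1, a phosphatase that shuts off MAP kinases, had a log2 fold change of 0.92 ± 0.31, and both treated libraries lay above both controls.

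The list of NF-kB targets and inflammatory cytokines did not move as one. Of 28 tested members, 4 were higher (against 2.54% of all tested genes) and 1 lower (against 2.28%) at an unadjusted p of at most 0.05. Its median was 0.09. The treated libraries were split in 11 of the 28, a share like that of all tested genes (6667 of 15428). The members that were higher were led by Il1b, which encodes the cytokine IL-1 beta. Il1b was 931 and 668 CPM in controls and 1752 and 3144 CPM after αMARCO, higher in both treated libraries but by more in αMARCO library 2. The log2 fold change was 1.61 ± 0.40 (DESeq2 adjusted p = 0.0033), and 1.14 without αMARCO library 2. The chemokine genes Ccl3 and Cxcl2 were 135 and 155 CPM, and 237 and 176 CPM, in controls. After αMARCO, Ccl3 was 288 and 390 CPM (1.22 ± 0.26, DESeq2 adjusted p = 0.022) and Cxcl2 was 371 and 416 CPM (0.93 ± 0.26, DESeq2 adjusted p = 0.22). Ccl4 was 151 and 142 CPM in controls and 196 and 345 CPM after αMARCO.

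Other cytokines of the list showed no separation. Tnf was 88.3 and 81.5 CPM in controls and 78.6 and 106 CPM after αMARCO. Il10 was 19.7 and 21.8 CPM in controls and 18.7 and 26.3 CPM after αMARCO. Il6 stayed at or below 2.24 CPM and Il12b at or below 0.855 CPM in the 4 libraries. The treated libraries were split around the control mean in each of these 4 genes. Nos2, inducible nitric oxide synthase, was 34.9 and 19.0 CPM in controls and 16.8 and 10.7 CPM after αMARCO, below both controls (unadjusted p = 0.049). Osm, the cytokine oncostatin M, and Cxcr4, a chemokine receptor, were chosen after their values were seen. Osm was 212 and 148 CPM in controls and 410 and 594 CPM after αMARCO, and Cxcr4 was 285 and 278 CPM in controls and 595 and 605 CPM after αMARCO, both called higher by DESeq2.

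Beside Il1b, the inflammasome list of 17 tested members held 1 other gene with an unadjusted p of at most 0.05, Il1rn, the secreted antagonist of the IL-1 receptor. Il1rn was 347 and 356 CPM in controls and 648 and 538 CPM after αMARCO (0.76 ± 0.25). The sensor gene Nlrp3 was 172 and 145 CPM in controls and 195 and 149 CPM after αMARCO, and Casp1, the protease that cuts pro-IL-1 beta, was 65.3 and 75.0 CPM and then 72.2 and 107 CPM. Pycard, the adaptor ASC, was 31.1 and 37.2 CPM in controls and 32.9 and 78.8 CPM after αMARCO, so its log2 fold change of 0.71 came from αMARCO library 2 and was -0.05 without it. Il18 was 36.6 and 32.1 CPM in controls and 28.2 and 41.3 CPM after αMARCO, with no common direction.

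The leading higher gene by p was Nfkbid, which encodes the nuclear IkB protein IkBNS (ENSMUSG00000036931, chromosome 7, 30421732 to 30428746, plus strand). It was 135 and 144 CPM in controls and 363 and 383 CPM after αMARCO, tightly grouped in both. Its log2 fold change was 1.42 ± 0.22 (DESeq2 adjusted p = 0.0008), and 1.39 without αMARCO library 2. Tnfsf9, the ligand of the costimulatory receptor 4-1BB, was 74.2 and 73.4 CPM in controls and 150 and 159 CPM after αMARCO (1.07 ± 0.20). Cd69, an early activation antigen, was 58.6 and 49.9 CPM in controls and 111 and 133 CPM after αMARCO. Phlda1 was 26.7 and 23.3 CPM in controls and 55.6 and 83.5 CPM after αMARCO. In these genes too the treated libraries lay above both controls, as the rule for leading genes required.

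The other 6 leading higher genes have mixed functions. Thap6, a THAP domain protein gene, was 77.4 and 64.5 CPM in controls and 178 and 185 CPM after αMARCO. Sppl3, an intramembrane protease that trims Golgi glycosyltransferases, was 47.2 and 41.7 CPM in controls and 94.4 and 118 CPM after αMARCO. Cox17, the copper chaperone of cytochrome c oxidase, was 8.83 and 7.17 CPM in controls and 24.4 and 20.2 CPM after αMARCO. Tmem119, Cep85 and Dpep3 ranged from 10.4 to 133 CPM in controls and from 22 to 357 CPM after αMARCO, with log2 fold changes of 1.39, 1.42 and 1.28. Both treated libraries lay above both controls in each, as the rule for leading genes required.

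**Figure D3:**
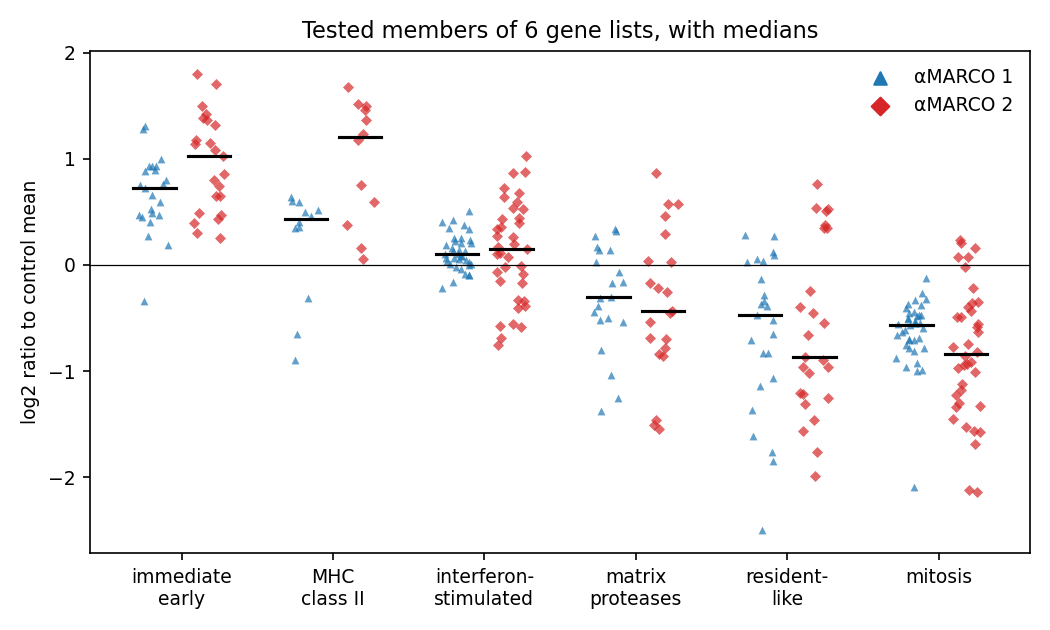
Log2 ratio to the control mean (y axis) of each tested member of 6 gene lists (x axis) in αMARCO library 1 (blue triangles) and αMARCO library 2 (red diamonds), with black bars at the medians. The immediate early medians are 0.73 and 1.03 and the mitosis medians are -0.56 and -0.84, while the interferon-stimulated medians are 0.10 and 0.15.

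TLR2 and TLR4 act at the cell surface and reach it without UNC93B1. Tlr2, the receptor for bacterial lipoproteins, was 160 and 133 CPM in controls and 277 and 402 CPM after αMARCO (1.21 ± 0.28, DESeq2 adjusted p = 0.037), and 0.93 without αMARCO library 2. Cd14, the co-receptor that hands ligands to TLR4 and TLR2, was 607 and 497 CPM in controls and 928 and 2037 CPM after αMARCO (1.43 ± 0.43, DESeq2 adjusted p = 0.040), and its size fell to 0.76 without αMARCO library 2. Tlr4 was 59.6 and 68.9 CPM in controls and 61.9 and 43.4 CPM after αMARCO, and the groups overlapped. Of the 12 tested members of this list, 2 were higher (against 2.54% of all tested genes) and 2 lower (against 2.28%) at an unadjusted p of at most 0.05, the lower ones being Cd36 and Ticam2. Cd36, a fatty acid and oxidized lipid receptor, was 42.7 and 36.9 CPM in controls and 18.1 and 24.3 CPM after αMARCO (-0.91 ± 0.26, DESeq2 adjusted p = 0.38).

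The endosomal TLR list, the pathway blocked in these mice, had 0 of 22 tested members at an unadjusted p of at most 0.05 in either direction and 0 calls by DESeq2. Unc93b1 itself was 541 and 661 CPM in controls and 556 and 652 CPM after αMARCO. Since the 3d allele changes the protein and not the presence of its RNA, this level does not check the genotype. Tlr3 was 39.5 and 35.3 CPM in controls and 42.3 and 34.7 CPM after αMARCO. Tlr7 was 103 and 102 CPM in controls and 82.0 and 63.6 CPM after αMARCO, lower in both treated libraries (-0.50 ± 0.22, unadjusted p = 0.066). Its log2 fold change was -0.32 without αMARCO library 2. Tlr9 was 101 and 96.3 CPM in controls and 86.9 and 28.0 CPM after αMARCO, so its log2 fold change of -0.78 ± 0.50 came largely from αMARCO library 2 and was -0.17 without it. Tlr8 had a like pattern, with 88.6 and 67.9 CPM in controls and 62.4 and 20.1 CPM after αMARCO. The adaptor gene Myd88 was 165 and 174 CPM in controls and 178 and 260 CPM after αMARCO, and Irf7, the transcription factor that drives interferon alpha genes, was 1101 and 882 CPM and then 989 and 1248 CPM.

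Type I interferon-stimulated genes, which lie downstream of that pathway and of other sensors, had 0 of 37 tested members at an unadjusted p of at most 0.05. In 7 members both treated libraries lay above both controls (against 19.7% of all tested genes) and in 0 below (against 19.5%). Both lay above the control mean in 19 members (against 29.3%) and below it in 5 (against 27.5%). The list's median was 0.15, with 0.10 in αMARCO library 1 and 0.15 in αMARCO library 2. Isg15, a ubiquitin-like modifier, was 373 and 287 CPM in controls and 306 and 601 CPM after αMARCO, with no common direction. Mx1 was 709 and 552 CPM in controls and 736 and 497 CPM after αMARCO. Ifit1 was 155 and 100.2 CPM in controls and 130 and 188 CPM after αMARCO. Cxcl10, a chemokine of T cell recruitment, was 406 and 393 CPM in controls and 468 and 659 CPM after αMARCO (0.50 ± 0.27). On the log2 scale it was 0.23 and 0.72 above the control mean in αMARCO libraries 1 and 2.

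The antibody's own target and the receptors for its constant region were also read. Marco had 4 and 7 counts in control libraries and 2 and 1 counts in αMARCO libraries, at most 0.356 CPM, and did not pass the filter, so no difference in it was detectable at this depth. Fcgr2b, the inhibitory IgG receptor, was 1422 and 1506 CPM in controls and 1738 and 1793 CPM after αMARCO (0.27 ± 0.27). Fcgr1 was 624 and 609 CPM in controls and 627 and 847 CPM after αMARCO, Fcgr3 was 523 and 619 CPM and then 495 and 615 CPM, and Fcgr4 was 141 and 173 CPM and then 92.5 and 160 CPM. None of the 12 tested members of the Fc receptor list had an unadjusted p of at most 0.05. Of 17 tested scavenger receptor genes, 1 was higher (against 2.54% of all tested genes) and 2 lower (against 2.28%) at that p. The lower ones were Cd36 and Mrc1. In 8 both treated libraries lay below both controls (against 19.5%) and in 4 above (against 19.7%), with a list median of -0.20. The higher one, Clec7a, the beta-glucan receptor dectin-1, was 153 and 142 CPM in controls and 293 and 374 CPM after αMARCO (1.18 ± 0.24, DESeq2 adjusted p = 0.026).

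MHC class II presentation genes lay above the controls in most members, by amounts that differed between the treated libraries, and no member was called by edgeR or DESeq2. Of 12 tested, 3 were higher (against 2.54% of all tested genes) and 0 lower at an unadjusted p of at most 0.05. In 8 both treated libraries lay above both controls (against 19.7%), with 0 below. The list's median was 0.88, with 0.43 in αMARCO library 1 and 1.20 in αMARCO library 2, so its size depended on the library. H2-Ab1, the beta chain of I-A, was 2197 and 2845 CPM in controls and 3316 and 7070 CPM after αMARCO. Its log2 fold change was 1.04 ± 0.45, and 0.41 without αMARCO library 2. H2-Eb1 was 1897 and 2528 CPM in controls and 3296 and 7015 CPM after αMARCO (1.22 ± 0.45, unadjusted p = 0.035). H2-DMb1, a subunit of the peptide-loading chaperone DM, was 201 and 259 CPM in controls and 356 and 586 CPM after αMARCO (1.03 ± 0.32). Type 2 dendritic cell markers, which share high class II levels, summed to 2304 and 2747 CPM in controls and 2874 and 2739 CPM after αMARCO, and type 1 dendritic cell markers to 702 and 777 CPM and then 712 and 871 CPM. These sums hide members that moved in different directions, and the type 2 list holds H2-DMb2, itself a class II gene. Of 11 tested type 2 markers, 3 lay below the control mean in both treated libraries and 5 above. Of 12 tested type 1 markers, 5 lay below and 4 above. Over all tested genes the shares were 27.5% below and 29.3% above. Cd209a (-1.46), Flt3 (-1.47) and Itgae (-1.74) were lower, Xcr1 (0.71) and Batf3 (0.84) higher. The part of dendritic cells in the class II difference was not tested.

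Among checkpoint and costimulation ligands, Cd274, which encodes PD-L1, was 302 and 271 CPM in controls and 204 and 185 CPM after αMARCO. The groups did not overlap, and the log2 fold change was -0.56 ± 0.22 (unadjusted p = 0.044, DESeq2 adjusted p = 0.82) and -0.48 without αMARCO library 2. Cd80 was 45.6 and 34.5 CPM in controls and 52.0 and 52.5 CPM after αMARCO, and Cd86 was 139 and 130 CPM and then 147 and 170 CPM. Of 21 tested members of the list, 1 was higher (against 2.54% of all tested genes, a like share) and 2 lower (against 2.28%) at an unadjusted p of at most 0.05.

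Mitosis genes lay below the controls in most members. Of 38 tested members, 21 were lower (against 2.28% of all tested genes) and 0 higher at an unadjusted p of at most 0.05. In 32 both treated libraries lay below both controls (against 19.5%), with 0 above. The median was -0.72, with -0.56 in αMARCO library 1 and -0.84 in αMARCO library 2, and -0.67 after correction for gene length. Neither edgeR nor DESeq2 called a member, and the list's median was -0.56 in the fit without αMARCO library 2. Hmmr, a spindle and hyaluronan-binding protein, was 12.4 and 15.4 CPM in controls and 6.84 and 3.05 CPM after αMARCO (-1.47 ± 0.44). Mki67, the proliferation antigen Ki-67, was 156 and 178 CPM in controls and 105 and 55.9 CPM after αMARCO (-1.05 ± 0.34), and -0.66 without αMARCO library 2. Cdc20, an activator of the anaphase-promoting complex, was 17.4 and 22.7 CPM in controls and 10.4 and 10.4 CPM after αMARCO (-0.95 ± 0.27). Cdk1, the kinase of mitotic entry, was 27.2 and 27.4 CPM in controls and 16.7 and 19.4 CPM after αMARCO (-0.60 ± 0.23). DNA replication genes had 1 of 35 tested members lower (against 2.28%, a like share) and 0 higher at that p, with a median of -0.19. More of them lay below both controls (11, against 19.5%) than above (2, against 19.7%). The summed T cell markers given above were lower in the same treated libraries, with Cd4 the most abundant member in the controls. The part of T cells in the mitosis difference was not tested.

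Promoters of mitosis genes are known for repeated CCAAT boxes bound by the factor NF-Y. A RefSeq start within 500 bases of the deposited 5′ end was found for 29 of the 38 members. In the 250 bases before it, CCAAT on either strand occurred at least once in 21 (72.4%), against 33.8% of 32851 promoters. It occurred at least 2 times in 14 (48.3%), against 10.1%. The immediate early genes, which were higher, had it at least once in 8 of 13 (61.5%) and at least 2 times in 3 (23.1%). The box was thus not particular to the mitosis genes. The stretches from 160 to 31 bases before the start are shown for 3 members described above, with CCAAT or its reverse complement ATTGG in capitals. They lie on the minus strand at chr4:118437374-118437503 for Cdc20, chr11:40733468-40733597 for Hmmr and chr10:69352943-69353072 for Cdk1.
Cdc20: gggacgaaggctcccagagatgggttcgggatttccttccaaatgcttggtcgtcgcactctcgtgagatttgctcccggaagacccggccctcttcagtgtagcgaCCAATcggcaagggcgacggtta
Hmmr: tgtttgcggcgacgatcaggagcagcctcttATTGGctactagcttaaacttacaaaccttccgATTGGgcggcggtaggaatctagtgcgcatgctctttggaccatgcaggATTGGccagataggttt
Cdk1: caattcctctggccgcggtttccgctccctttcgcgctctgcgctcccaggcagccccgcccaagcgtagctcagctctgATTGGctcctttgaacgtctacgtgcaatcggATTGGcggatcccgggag
The windows hold 1, 3 and 2 copies. The matches describe the sequence of genes that were lower together and show no binding.

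Matrix protease and inhibitor genes had 6 of 21 tested members lower (against 2.28% of all tested genes) and 0 higher at an unadjusted p of at most 0.05, with 12 below both controls (against 19.5%) and 2 above. Mmp27 was 37.3 and 34.6 CPM in controls and 17.4 and 12.3 CPM after αMARCO (-1.27 ± 0.27, DESeq2 adjusted p = 0.052). Ctsk, the collagen-cleaving cathepsin K, was 9.52 and 7.17 CPM in controls and 3.11 and 2.84 CPM after αMARCO. Mmp12, the macrophage elastase, was far more abundant and lay above both controls, with 604 and 704 CPM and then 718 and 799.97 CPM. Among alternative activation genes, 4 of 19 tested were lower at that p (against 2.28%) and 0 higher, with 7 below both controls (against 19.5%) and 5 above (against 19.7%). Chil3, the chitinase-like protein Ym1, was 59.1 and 22.1 CPM in controls and 10.4 and 12.9 CPM after αMARCO (DESeq2 adjusted p = 0.018). Ccl22, a chemokine for regulatory T cells, was 18.3 and 16.8 CPM in controls and 8.06 and 8.66 CPM after αMARCO. Both genes lay below both controls in both treated libraries.

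Among mitochondrially encoded subunits, 8 of 11 tested members lay above both controls in both treated libraries (against 19.7% of all tested genes), and 2 were higher at an unadjusted p of at most 0.05 (against 2.54%). Their median was 0.61, with 0.66 in αMARCO library 1 and 0.51 in αMARCO library 2. mt-Nd1, a subunit of respiratory complex I, was 790 and 824 CPM in controls and 1219 and 1232 CPM after αMARCO. mt-Co1 of complex IV was 8073 and 7678 CPM in controls and 13950 and 10196 CPM after αMARCO. Mitochondrial genes took 1.25% and 1.18% of counts in controls and 2.06% and 1.39% after αMARCO, and the part of RNA quality in this difference was not tested.

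In 3 other lists the treated libraries were far apart. Over all 15428 tested genes, 6667 were split. Of 41 nuclear oxidative phosphorylation subunits, 39 were split, with medians of -0.40 in αMARCO library 1 and 0.71 in αMARCO library 2. Of 45 cytosolic ribosomal proteins, 30 were split, with medians of -0.10 and 0.94. For 20 long genes of cells of every type the medians were -0.02 and -1.58. Of these, 12 lay below the control mean in both treated libraries (against 27.5% of all tested genes) and 0 above in both (against 29.3%). The other 8 were split, a share like that of all tested genes. In 11 both treated libraries lay below both controls (against 19.5%). Fitted over both treated libraries, the medians of these 3 lists were 0.27, 0.56 and -0.60, and 0.28, 0.53 and -0.30 after correction for gene length. The treated libraries mostly disagreed in direction in the first 2 of these lists. For the long genes the median of αMARCO library 1 was near the control mean, and that of αMARCO library 2 was far below it.

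**Figure D4:**
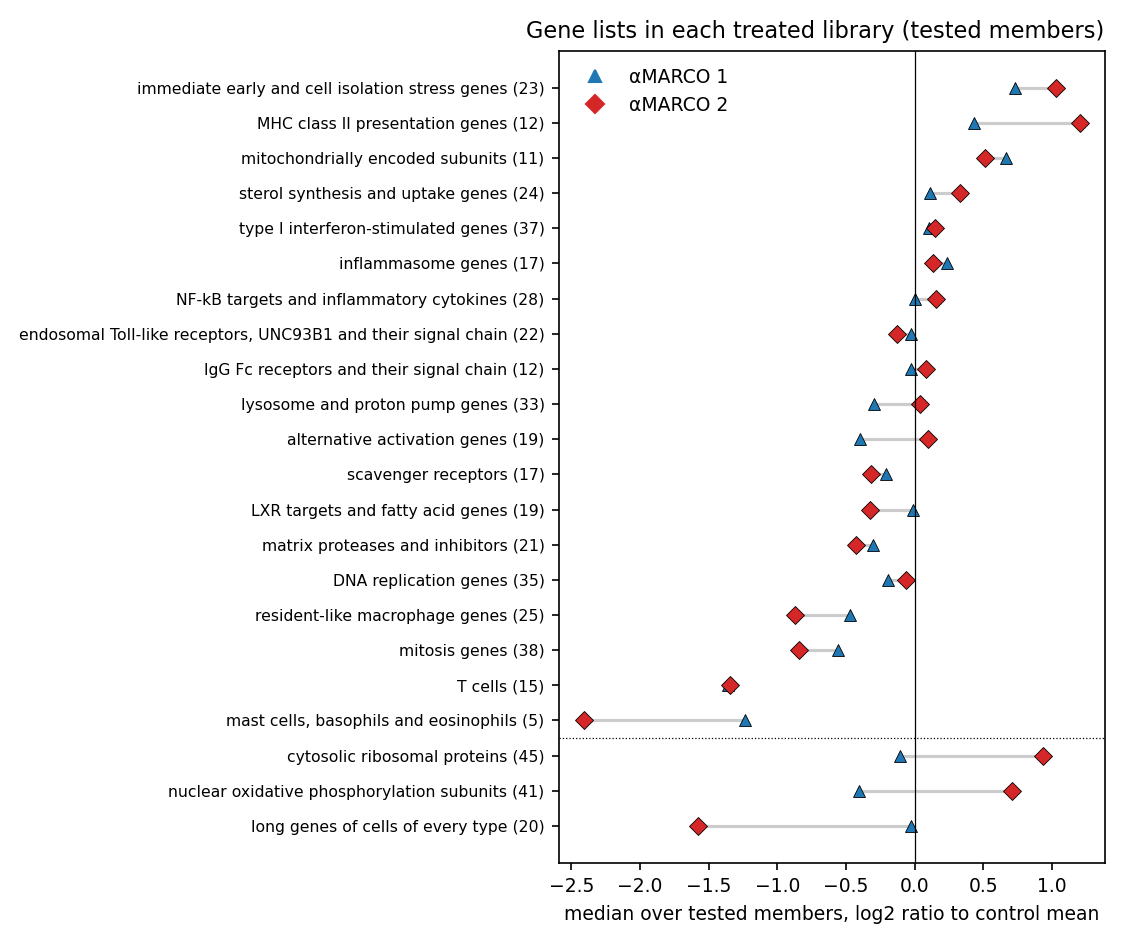
Median log2 ratio to the control mean over the tested members (x axis) of each gene list (y axis, number of tested members in parentheses), in αMARCO library 1 (blue triangles) and αMARCO library 2 (red diamonds). The dotted line sets apart 3 lists chosen as a check on gene length, with medians of -0.10 and 0.94, -0.40 and 0.71, and -0.02 and -1.58, while the immediate early, resident-like and mitosis lists lie on 1 side of 0 in both libraries.

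Whether the αMARCO effect differed between genotypes was tested as an interaction over all 8 libraries, so that a positive value means a higher log2 effect in Unc93b1 3d/3d than in WT. The WT comparison shares no library with this one. EdgeR called 0 of 16620 genes, while 2549 reached an unadjusted p of 0.05, 1455 with a more positive effect in Unc93b1 3d/3d (8.75%) and 1094 with a more negative one (6.58%). In WT alone edgeR called 1393 genes higher (8.91%) and 1843 lower (11.8%). For the interaction DESeq2 called 197 genes, 97 more positive (0.36%) and 100 more negative (0.371%). The genes named next had edgeR adjusted p-values of 0.164 to 0.975 for this difference.

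Dgat2 was again first. Its log2 effect was -3.32 ± 0.25 in Unc93b1 3d/3d and 0.09 in WT, where it was 10.3 and 7.05 CPM in controls and 7.43 and 10.8 CPM after αMARCO (scaled over 8 libraries). The difference was -3.41 (DESeq2 adjusted p = 6.4e-14), and the αMARCO libraries of the mutant were near the WT levels while its controls stood above them. Folr2 differed by -1.75 (DESeq2 adjusted p = 0.00098) with a WT effect of -0.05, Slc40a1 by -1.74 (0.0049) with a WT effect of 0.09, and Npl by -2.19 (0.0079) with a WT effect of -0.13. Abca1 was lower in Unc93b1 3d/3d and higher in WT, at -1.22 and 1.20, a difference of -2.42 (DESeq2 adjusted p = 6e-08). Fcrls differed by -1.56 and Fn1 by -2.60, and DESeq2 called both. Over the resident-like list, 14 of 25 tested members had a more negative effect in Unc93b1 3d/3d at an unadjusted p of at most 0.05 (against 6.58% of all tested genes) and 0 a more positive one (against 8.75%), and the list's median was -0.68 in Unc93b1 3d/3d and 0.11 in WT.

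In the other direction, Clec7a differed by 1.56 (DESeq2 adjusted p = 0.0062) with effects of 1.18 in Unc93b1 3d/3d and -0.38 in WT, and Cd69 by 1.24 (0.0099) with effects of 1.17 and -0.07. MHC class II genes had 9 of 12 tested members with a more positive effect in Unc93b1 3d/3d at an unadjusted p of at most 0.05 (against 8.75% of all tested genes), with list medians of 0.88 and -0.43. Markers of other class II-rich cells moved with this difference. Mature migratory dendritic cell markers had a median of -0.09 in Unc93b1 3d/3d and -2.45 in WT, where 9 members were called lower (against 11.8% of all tested genes). For the difference, 9 of 12 tested had a more positive effect in Unc93b1 3d/3d at that p (against 8.75%). Type 1 dendritic cell markers had medians of 0.06 and -0.83, with 5 members called lower in WT (against 11.8%). The part of these cells in the class II difference between genotypes was not tested. H2-DMb1 and H2-DMb2 passed DESeq2 at adjusted p-values of 0.027 and 0.043, while H2-Ab1 had 0.055. Il12b was called by DESeq2 with a difference of 3.14, but here it came from WT, where it was 26.1 and 23.2 CPM in controls and 2.23 and 2.39 CPM after αMARCO, and Il12b was at the low levels given above in each mutant library. The dendritic cell markers just given were lower in the same WT libraries, and their part in the difference of Il12b was not tested.

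EdgeR called no difference between genotypes in the programs that follow, as in those above. Mitosis genes had a median of -0.72 in Unc93b1 3d/3d and -0.79 in WT, where edgeR called 29 lower (against 11.8% of all tested genes). For the difference, 0 of 38 tested members had an unadjusted p of at most 0.05 in either direction. The shares of all tested genes were 8.75% more positive and 6.58% more negative. In the same WT libraries T cell and NK cell markers had list medians of -2.93 and -2.45. Markers near the floor could pass the filter through the controls, where they were higher. These medians thus describe the tested members only, and no count over them is read. The part of these cells in the mitosis values was not tested. The difference of Hmmr was -0.04 ± 0.49 (SE) and that of Cdc20 was 0.34 ± 0.27. Fam71a was lower by -2.48 and -2.35 in the genotypes, and Thap6 was higher by 1.36 and 1.49. Immediate early genes had medians of 0.86 and 0.22, and 6 members were called higher in WT alone (against 8.91% of all tested genes). For the difference, 8 of 23 tested members were more positive in Unc93b1 3d/3d at that p (against 8.75%) and 0 more negative (against 6.58%). DESeq2's adjusted p for the difference was 0.11 for Fos and 0.16 for Btg2. A p above the threshold does not show that the effects were alike.

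**Figure D5:**
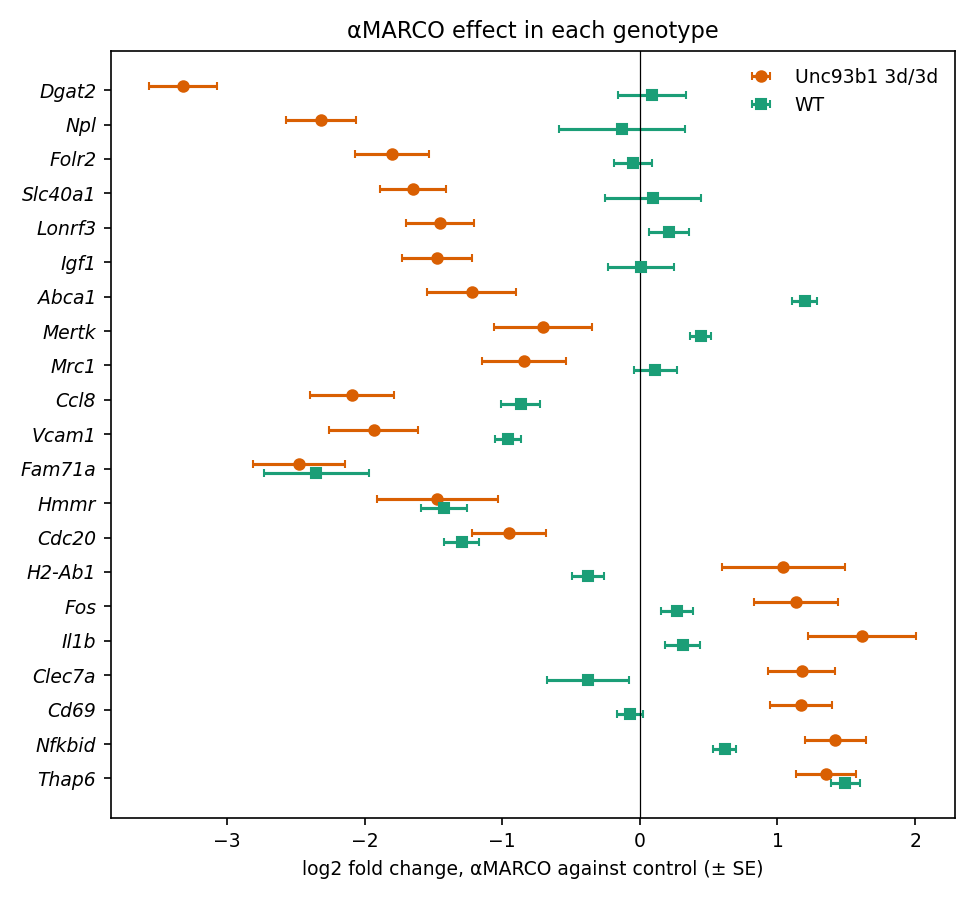
Log2 fold change of αMARCO against control (x axis, bars ± SE, 2 against 2 libraries) for 21 genes (y axis) in Unc93b1 3d/3d TAMs (orange circles) and WT TAMs (green squares), each fitted in its own 4 libraries. Dgat2 is at -3.32 and 0.09, Abca1 at -1.22 and 1.20, and Thap6 at 1.36 and 1.49.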

How the data were processed

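The deposited tables hold raw read counts per gene. Per the labels and methods, fastp was used by the authors for read cleaning, HISAT2 2.0.5 for alignment and featureCounts 1.5.0 for counting per gene. The columns of the authors' own comparison (fold changes and p-values from DESeq2 1.40.2), their normalized values and their FPKM were not used. Gene positions are those of GRCm38. The counts of the 4 Unc93b1 3d/3d libraries were fitted with edgeR 4.0.16 in R 4.3.3 (TMM scaling, filter on low counts, robust quasi-likelihood test), and 8 libraries were fitted together for the interaction with genotype. Adjusted p-values are Benjamini-Hochberg. CPM values are TMM-scaled. SE is that of the fitted log2 fold change, and log2 ratios per library add 2 counts. Alternatives were DESeq2 1.42.0, limma 3.58.1 with quality weights, other scaling and filters, all 8 libraries, a replicate block, a correction for gene length (mgcv 1.9.3), and leaving out each library. The scripts were tested on simulated counts. Named genes are chosen members of each gene list, up to 3 further members with the smallest p, and 10 leading genes per direction (mean of at least 5 CPM, log2 fold change of at least 1, groups that do not overlap, and a length-corrected change of at least 0.5 of the same sign). Genes said to be chosen after their values were seen stand outside this rule. The comparison, members and lists were chosen with earlier results of these data known. Promoters are from RefSeq (GRCm38.p6).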

Additional observations from a re-analysis of the deposited data

How the results depend on the processing

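In the comparison of αMARCO with control in Unc93b1 3d/3d, edgeR called 0 genes, also with DESeq2's size factors, with at least 10 counts in every library, with a correction for gene length, with that correction and the replicate block, and with a fold threshold of 1 or none. DESeq2 called 54, limma with quality weights 6, the fit with no filter 27, all 8 libraries 1 and the replicate block 5. Leaving out 1 library gave 1 to 5500 calls, with 571 without αMARCO library 2 and 5500 without αMARCO library 1, where the lone treated library was assumed to vary like the others. For the difference between genotypes, 0 calls became 197 with DESeq2, 37 with limma and 152 with no filter, and 0 to 6440 on leaving out 1 library, with 612 without αMARCO library 2 of Unc93b1 3d/3d and 6440 without αMARCO library 1. The cause was not tested. Samples share only a number (correlation of the deviations of same-numbered samples 0.13 over 2 pairs), so the block is no pairing.

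Under the length correction 128 of 128 named genes kept their direction, and none was called before or after. List medians did move with it, such as those of the long genes (-0.60 to -0.30), LXR targets (-0.25 to -0.09) and resident-like genes (-0.68 to -0.55). The log2 fold change of Unc93b1 (0.01) became -0.0085 with DESeq2, -0.013 with its size factors, -0.025 with at least 10 counts and -0.000997 with all 8 libraries. That of Il18 (0.02) became -0.00455 with limma, -0.00411 with DESeq2's size factors, -0.019 with at least 10 counts and -0.00504 with the replicate block. On leaving out 1 library, the direction turned for the genes that follow, with these ranges: Unc93b1 -0.13 to 0.16, Tlr3 -0.11 to 0.19, Fcgr3 -0.20 to 0.10, Fcgr4 -0.75 to 0.019, Fcer1g -0.034 to 0.79, Tnf -0.10 to 0.31, Il6 -0.98 to 0.064, Il12b -1.13 to 0.17, Il10 -0.14 to 0.34, Nlrp3 -0.10 to 0.31, Pycard -0.0455 to 1.20, Il18 -0.27 to 0.26, Lyve1 -0.52 to 0.20, Mmp9 -0.73 to 0.35, Isg15 -0.10 to 0.86, Mx1 -0.35 to 0.23, Pdcd1lg2 -0.41 to 0.62 and Retnla -1.31 to 0.21. Below 0.139 to 0.198 CPM, the level of 3 counts, no difference was detectable.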

Other observations

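Of all tested genes, 2.54% were higher and 2.28% lower at an unadjusted p of at most 0.05, and 19.7% lay above and 19.5% below both controls. At that p, sterol synthesis genes had 1 of 24 tested members higher, near the share of all genes, and 0 lower, with 11 above both controls (against 19.7%) and 1 below, and medians of 0.12 in αMARCO library 1 and 0.33 in αMARCO library 2. Chemokine receptors had 3 of 13 higher (against 2.54%) and 0 lower, with 7 above both controls (against 19.7%). Lysosome genes had 5 of 33 lower (against 2.28%) and 0 higher, with 13 below both controls (against 19.5%), but medians of -0.29 and 0.04 in the treated libraries. NRF2 targets had 2 of 18 lower (against 2.28%) and 0 higher, with 9 below both controls (against 19.5%). Growth factor genes had 5 of 24 lower (against 2.28%) and 1 higher (against 2.54%). Hypoxia genes had 0 of 30 lower and 1 higher, although 10 lay below both controls, against 19.5% of all tested genes.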
